A study of Mus musculus with 10 samples.

Results

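The genes described here were 9 lymphocyte genes among the 47937 genes listed in every library. They were 4 genes of B cells (*Cd79a*, *Cd79b*, *Ms4a1* and *Ighm*) and 5 of T cells (*Cd3e*, *Cd3d*, *Cd3g*, *Cd4* and *Cd8a*), chosen by symbol. The symbols were mapped from the Ensembl identifiers of the count tables with the version dropped, and all 9 were found. mRNA-seq was done on visceral white adipose tissue (WAT) of C57BL/6 mice in 10 libraries of 4 groups. On a standard diet (SD), 3 *Mof*+/+ and 3 *Mof*+/- mice were sampled at 8 weeks of age. On a high-fat diet (HFD), 2 *Mof*+/+ and 2 *Mof*+/- mice were sampled at 27 weeks of age, after 20 weeks on the diet. *Mof*, listed as *Kat8*, encodes a histone acetyltransferase. The labels call *Mof*+/- mice heterozygous and do not name the allele. Age thus differs between the diets by the labels, so the effects of both cannot be told apart, and the study's text gives a longer time on HFD than the labels do. Pieces of whole tissue were lysed, so all cells of a piece gave RNA to its library.

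B cells carry an antibody on their surface as the B cell receptor. CD79A and CD79B pass its signal into the cell, CD20 (*Ms4a1*) is a surface protein of mature B cells, and *Ighm* encodes the constant part of the IgM heavy chain, which B cells hold in the membrane and antibody-secreting plasma cells release. T cells carry the T cell receptor with its signalling chains CD3 epsilon, delta and gamma (*Cd3e*, *Cd3d*, *Cd3g*), and the coreceptors CD4 and CD8 alpha mark helper and cytotoxic T cells. In visceral WAT both kinds of lymphocytes lie scattered among adipocytes and macrophages, and lymph nodes, in which B and T cells are packed closely, can be embedded in the fat.

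Counts on genes totalled between 1044355 and 17171947 per library, and the lowest total was that of HFD *Mof*+/- replicate 1. Levels are given in CPM, a gene's count scaled to a library total of 1000000 counts on genes. A count of 0 allows up to 3 counts, which was 2.87 CPM in HFD *Mof*+/- replicate 1 and between 0.175 and 0.542 CPM in the other 9 libraries. Such floors, and the 95% binomial confidence intervals (exact Clopper-Pearson) given below, cover counting error only. *Kat8* was at 20.4 to 21.5 CPM in the SD *Mof*+/+ and 11.5 to 18.8 CPM in the SD *Mof*+/- libraries, at 18.1 and 19.2 CPM in the HFD *Mof*+/+ and at 20.1 and 10.5 CPM in the HFD *Mof*+/- libraries. The headings inside the count tables exchange the genotype of the third SD libraries. The table of the library labelled SD *Mof*+/+ replicate 3 is headed as heterozygous, with a *Kat8* level of 20.4 CPM, and that of SD *Mof*+/- replicate 3 is headed as control, with 11.5 CPM. By the labels, *Kat8* on SD was lower in every *Mof*+/- library than in every *Mof*+/+ library, with *Mof*+/- replicate 2 nearest, at 18.8 CPM. On HFD it did not separate the genotypes, since *Mof*+/- replicate 1 was at 20.1 CPM, on 21 counts. Groups below follow the labels. The 8 adipocyte genes summed to between 15322 and 65549 CPM, so every library held adipocyte RNA. In HFD *Mof*+/- replicate 1 the 12 skeletal muscle genes summed to 75270 CPM, against 1855 CPM in replicate 2 and at most 137 CPM in the SD and HFD *Mof*+/+ libraries.

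*Cd3g*, *Cd3d* and *Cd3e* are neighbours on chromosome 9 of GRCm38. *Cd3g* (44969572 to 44980431, minus strand) and *Cd3d* (44981786 to 44987339, plus strand) face away from each other with 1355 bases between their starts, and *Cd3e* (44998740 to 45009627, minus strand) ends 11401 bases beyond *Cd3d*. *Cd79a* lies on chromosome 7 (24897381 to 24902197), *Cd79b* on 11 (106311341 to 106314762), *Ms4a1* on 19 (11249675 to 11266241), *Ighm* on 12 (113418558 to 113422730), and *Cd4* and *Cd8a* on 6 (124864692 to 124888221 and 71373427 to 71379173). The annotation places an antisense gene, *4930526L06Rik*, over *Ms4a1*, with at most 7 counts in a library, and no annotated gene over the other 8.

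The RefSeq table of promoters (GRCm38.p6) held 5 of the 9 genes. The 250 bases before RefSeq's start of the neighbouring CD3 genes and of *Cd79a*, whose levels are compared after them, are given 5′ to 3′, with matches to the E-box CAGGTG, a motif bound by the lymphocyte E proteins, in capitals on either strand.
Cd3g, chr9:44980432-44980681 (- strand): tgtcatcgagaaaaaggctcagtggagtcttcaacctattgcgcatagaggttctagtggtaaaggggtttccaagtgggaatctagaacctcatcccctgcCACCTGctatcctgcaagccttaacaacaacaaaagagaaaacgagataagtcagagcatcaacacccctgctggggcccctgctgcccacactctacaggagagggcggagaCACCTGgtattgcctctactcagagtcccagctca
Cd3d, chr9:44981536-44981785 (+ strand): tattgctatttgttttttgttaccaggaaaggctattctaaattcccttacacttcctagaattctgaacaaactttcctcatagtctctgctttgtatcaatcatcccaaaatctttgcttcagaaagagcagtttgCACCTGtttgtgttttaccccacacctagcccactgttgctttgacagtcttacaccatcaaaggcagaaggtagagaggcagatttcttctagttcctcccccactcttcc
Cd3e, chr9:45009612-45009861 (- strand): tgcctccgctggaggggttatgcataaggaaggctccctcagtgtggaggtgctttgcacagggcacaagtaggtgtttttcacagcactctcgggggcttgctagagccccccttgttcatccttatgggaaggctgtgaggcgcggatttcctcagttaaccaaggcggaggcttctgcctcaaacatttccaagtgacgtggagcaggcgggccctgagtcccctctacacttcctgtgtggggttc
Cd79a, chr7:24897247-24897496 (+ strand): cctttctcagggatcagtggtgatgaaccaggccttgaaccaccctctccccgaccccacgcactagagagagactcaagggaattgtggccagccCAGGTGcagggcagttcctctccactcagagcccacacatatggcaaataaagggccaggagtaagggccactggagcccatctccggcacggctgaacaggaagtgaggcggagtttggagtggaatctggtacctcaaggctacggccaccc
*Cd3g* held 2 matches, from -148 to -143 and from -35 to -30, *Cd3d* held a match from -112 to -107 and *Cd79a* a match from -154 to -149, counted from the base before RefSeq's start as -1. RefSeq's start is that of the gene coordinates above for *Cd3g* and *Cd3d*, but lies 116 bases inside the gene for *Cd79a* and 16 bases inside it for *Cd3e*. *Cd3e* and *Cd8a* held none, so 3 of the 5 promoters had the E-box, which 17.2% of all 32851 promoters held. The octamer ATGCAAAT (1.60% of all promoters), the EBF motif CCCNNGGG (11.8%), the ETS motif CCGGAA (12%) and the TATA box TATAAA (12.4%), each searched on both strands, were in none of the 5. Only exact matches of these letters were searched, so a site that differs from them would be missed. A promoter without a match was thus not shown to lack a site, and matches were not tested as binding sites.

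The levels of the lymphocyte genes were set apart by a single library. In SD *Mof*+/+ replicate 3, 8 of the 9 genes were higher than in any other library, at 3.82 to 15.9 times the next highest library. This library held between 44.6% (*Cd3d*) and 79.5% (*Cd4*) of all counts of these 8 genes over the 10 libraries, whereas 15.3% of the 13177 genes with a mean of at least 20 counts were highest in it. The exception was *Ighm*, which was highest in HFD *Mof*+/+ replicate 1.

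**Figure D1:**
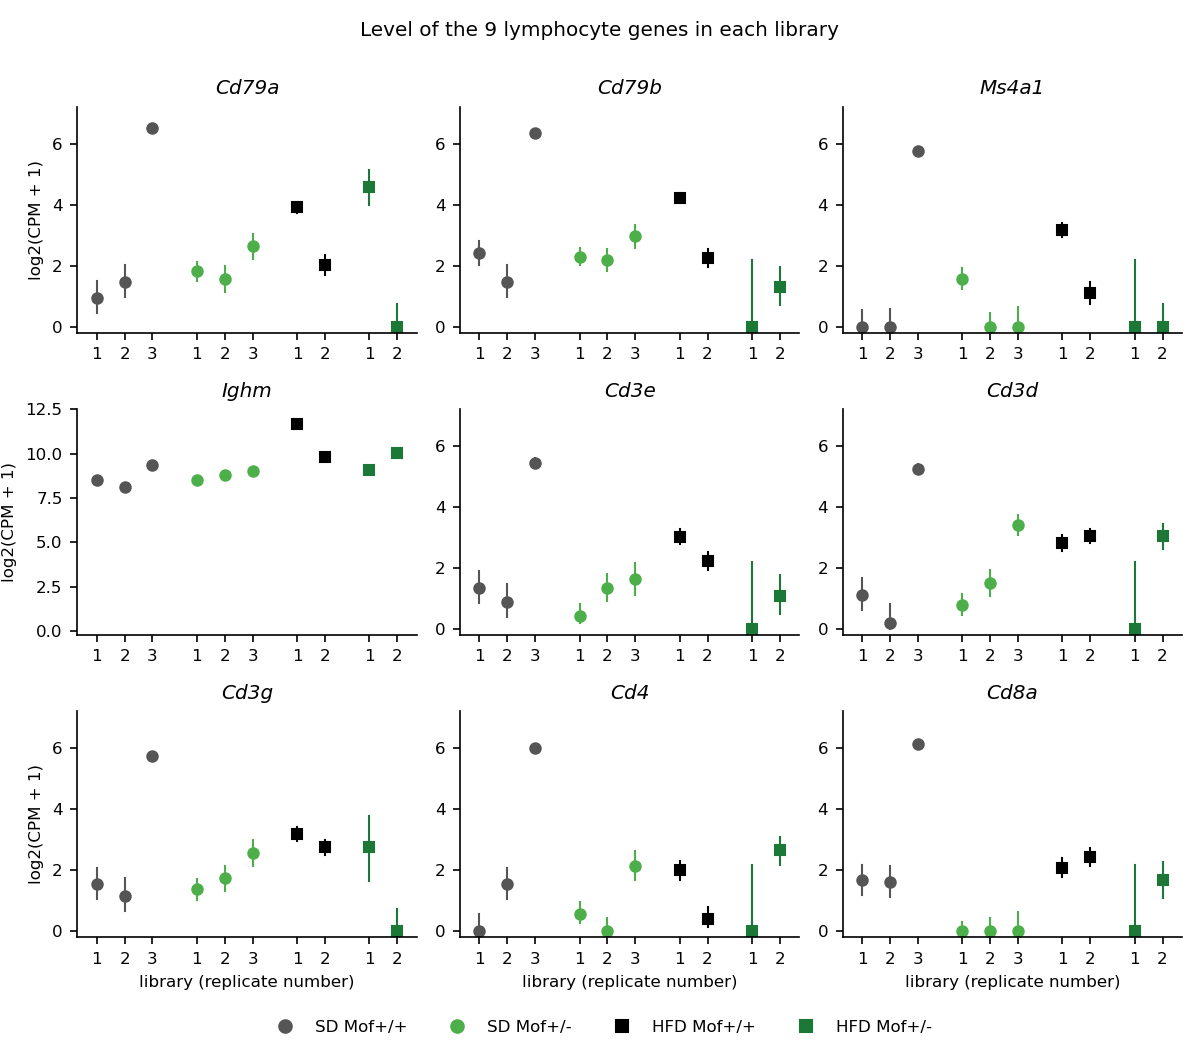
Level of each of the 9 genes by library, as log2(CPM + 1) on the vertical axis, with replicate numbers on the horizontal axis, a symbol for each library and bars for the 95% binomial confidence interval (counting error only). SD *Mof*+/+ replicate 3 is the highest point in 8 panels, and in the panel of *Ighm*, which has a longer axis, HFD *Mof*+/+ replicate 1 is the highest.

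Among the B cell genes, *Cd79a* was at 0.894, 1.78 and 90.9 CPM in the SD *Mof*+/+ libraries (replicates 1, 2 and 3), at 2.50, 1.92 and 5.20 CPM in the SD *Mof*+/- libraries, at 14.1 and 3.06 CPM in the HFD *Mof*+/+ libraries and at 22.98 and 0 CPM in the HFD *Mof*+/- libraries. *Cd79b*, its partner in the receptor, was at 4.34, 1.78 and 80.0 CPM, at 3.90, 3.55 and 6.84 CPM, at 17.6 and 3.75 CPM and at 0 and 1.45 CPM in the same order. Both genes were high in SD *Mof*+/+ replicate 3, lower in HFD *Mof*+/+ replicate 1 and low elsewhere, except that *Cd79a* alone reached 22.98 CPM in HFD *Mof*+/- replicate 1. That value rested on 24 counts, with an interval of 14.7 to 34.2 CPM, and the same library had no count of *Cd79b* or *Ms4a1*. *Ms4a1* was at 0, 0 and 53.0 CPM in the SD *Mof*+/+ libraries, at 1.98, 0 and 0 CPM in the SD *Mof*+/- libraries, at 8.01 and 1.12 CPM in the HFD *Mof*+/+ libraries and at 0 in both HFD *Mof*+/- libraries. It thus had no count in 6 of the 10 libraries.

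*Ighm* stood on another scale and followed another order. It was at 370.3, 282 and 653 CPM in the SD *Mof*+/+ libraries, at 372, 449.7 and 521 CPM in the SD *Mof*+/- libraries, at 3296 and 910.3 CPM in the HFD *Mof*+/+ libraries and at 531 and 1047 CPM in the HFD *Mof*+/- libraries. Every HFD library was above every SD library of its genotype, and HFD *Mof*+/+ replicate 1 was 3.15 times the next highest library. In *Mof*+/- the intervals of HFD replicate 1 (488 to 578 CPM) and SD replicate 3 (504 to 539 CPM) overlapped. SD *Mof*+/+ replicate 3 was above the other SD libraries but held only 5.24% of all *Ighm* counts.

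Of the T cell receptor genes, *Cd3e* was at 1.53, 0.822 and 42.6 CPM in the SD *Mof*+/+ libraries, at 0.349, 1.53 and 2.08 CPM in the SD *Mof*+/- libraries, at 7.10 and 3.68 CPM in the HFD *Mof*+/+ libraries and at 0 and 1.08 CPM in the HFD *Mof*+/- libraries. For *Cd3d* the values were 1.15, 0.137 and 36.9 CPM, then 0.699, 1.82 and 9.67 CPM, then 6.01 and 7.24 CPM, and then 0 and 7.23 CPM. *Cd3g* was at 1.92, 1.23 and 52.0 CPM, at 1.57, 2.30 and 4.91 CPM, at 8.07 and 5.68 CPM and at 5.75 and 0 CPM. All 3 CD3 genes were far highest in SD *Mof*+/+ replicate 3, and the HFD *Mof*+/+ libraries were above SD *Mof*+/+ replicates 1 and 2 for each of them. The 5.75 CPM of *Cd3g* in HFD *Mof*+/- replicate 1 rested on 6 counts.

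The coreceptor *Cd4* was at 0, 1.92 and 62.5 CPM in the SD *Mof*+/+ libraries, at 0.466, 0 and 3.42 CPM in the SD *Mof*+/- libraries, at 2.97 and 0.312 CPM in the HFD *Mof*+/+ libraries and at 0 and 5.24 CPM in the HFD *Mof*+/- libraries. *Cd8a* was at 2.17, 2.05 and 69.7 CPM in the SD *Mof*+/+ libraries, had no count in any SD *Mof*+/- library, was at 3.23 and 4.37 CPM in the HFD *Mof*+/+ libraries and at 0 and 2.17 CPM in the HFD *Mof*+/- libraries. *Cd8a* was the only member whose SD groups did not overlap, whereas 40.3% of all genes tested did not. *Cd8b1*, the partner chain of CD8 alpha, did have counts in the SD *Mof*+/- libraries, at 0.524, 1.92 and 0 CPM, against 0, 0.822 and 42.2 CPM in the SD *Mof*+/+ libraries.

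To compare the genes with each other, levels were divided by the length of all annotated exons of a gene together, from 1431 bases (*Cd79b*) to 6187 bases (*Ms4a1*). In SD *Mof*+/+ replicate 3, *Cd79a* and *Cd79b* were at 62.4 and 55.9 CPM per kb, *Cd3d*, *Cd8a*, *Cd3g*, *Cd4* and *Cd3e* at 20.3, 19.2, 15.9, 15.5 and 10.4 CPM per kb, and *Ms4a1* at 8.57 CPM per kb. *Ighm* was at 346 CPM per kb there and at 1748 CPM per kb in HFD *Mof*+/+ replicate 1. The order within the first library thus put the signalling chains of the B cell receptor above all T cell members and *Ms4a1*. Before the division these chains were also above those genes, at 90.9 and 80.0 CPM against at most 69.7 CPM (*Cd8a*). Expressed transcripts can be shorter than all exons of a gene together, so the distances in CPM per kb depend on the annotation.

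Across the 10 libraries, the 28 pairs among the 8 genes other than *Ighm* had Pearson correlations of log2(CPM + 1) between 0.40 and 0.94, with a median of 0.76. Without SD *Mof*+/+ replicate 3 the range was -0.25 to 0.86 and the median 0.33. *Ighm* had a median correlation of 0.30 with the other 8 genes over all libraries and of 0.50 over the remaining 9. These are descriptions over libraries that differ in depth.

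Most further T and B cell genes shared this order. In SD *Mof*+/+ replicate 3 the 5 T cell members summed to 264 CPM, against 3.09 to 27.4 CPM in the other 9 libraries, and 23 further T cell genes summed to 984 CPM, against 18.2 to 160.3 CPM. Of those 23 genes, 22 were highest in this library, as were 14 of 18 further B cell genes, which summed to 710.1 CPM against 34.5 to 229 CPM. Other lymphocyte lists were less uniform, with 6 of 12 T cell subset genes, 4 of 6 gamma-delta T cell genes, 2 of 4 B-1 cell genes and 0 of 6 type 2 innate lymphoid genes highest there. The gamma-delta T cell genes summed to 64.3 CPM there and to 56.2 CPM in SD *Mof*+/+ replicate 1. Most of both sums was *Sox13*, whose levels are given below. The list also holds *Blk*, a gene of B cells too, at 17.0 CPM in SD *Mof*+/+ replicate 3. *Lck*, a kinase of the T cell receptor, was at 99.2 CPM and at most 11.5 CPM elsewhere.

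The same library carried genes of lymph nodes. *Glycam1*, a mucin of the high endothelial venules through which lymphocytes enter lymph nodes, was at 25.2 CPM (195 counts) in SD *Mof*+/+ replicate 3 and had no count in the other 9 libraries. *Madcam1*, an adhesion molecule of such vessels, was at 2.06 CPM (16 counts) there and likewise had no count elsewhere. *Chst4*, which encodes a sulfotransferase of the same vessels, was at 3.48 CPM there, at 4.80 CPM in SD *Mof*+/- replicate 2 and at 26.8 CPM (28 counts) in HFD *Mof*+/- replicate 1. *Ccr7*, a receptor that guides naive lymphocytes into lymph nodes, was at 60.9 CPM, against at most 3.87 CPM elsewhere. *Ltb*, a lymphotoxin needed to form lymph nodes, was at 84.8 CPM against at most 11.2 CPM, and its relative *Lta* at 13.7 CPM against at most 1.81 CPM. *Fcer2a* and *Cr2*, genes of follicular B cells, were at 57.8 and 30.8 CPM against at most 1.81 and 1.36 CPM, and *Cxcr5*, their receptor for entry into follicles, was at 18.6 CPM against at most 3.27 CPM.

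Not every gene of lymph nodes was high. *Ccl21a*, a chemokine of the T cell zone, had no count in SD *Mof*+/+ replicate 3 and a single count in SD *Mof*+/- replicate 2. *Ccl19*, another such chemokine, was at 0.903 CPM there, and at 1.61 and 1.499 CPM in the HFD *Mof*+/+ libraries. *Cxcl13*, the chemokine of follicles, was at 23.5 CPM there and higher, at 39.5 CPM, in HFD *Mof*+/+ replicate 1. *Fcamr*, a receptor for IgM and IgA, was at 1.81 CPM there and at most 1.10 CPM elsewhere, and *Tnfrsf11a* was highest in HFD *Mof*+/+ replicate 2 (60.5 CPM). In all, 9 of the 14 lymph node genes were highest in SD *Mof*+/+ replicate 3, where they summed to 458 CPM, against 16.2 to 101 CPM in the others.

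**Figure D2:**
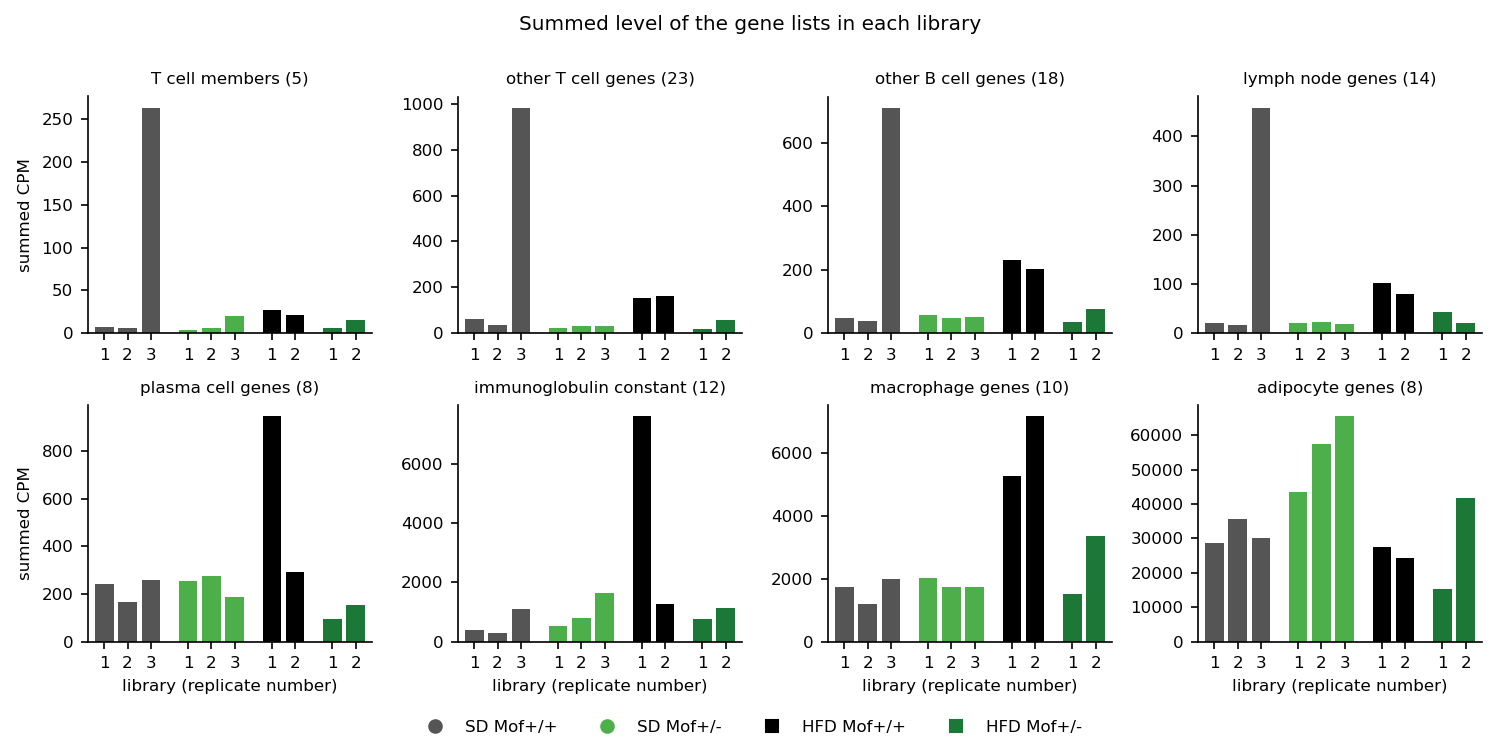
Summed CPM (vertical axes, from 0) of 8 gene lists in each library (horizontal axes, replicate numbers; colours mark the groups). SD *Mof*+/+ replicate 3 stands above the other libraries for the T cell, B cell and lymph node genes, HFD *Mof*+/+ replicate 1 for the plasma cell and immunoglobulin genes, and neither is the highest library for the macrophage or adipocyte genes.

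The macrophage and adipocyte genes did not share this order. The 10 macrophage genes summed to 1978 CPM in SD *Mof*+/+ replicate 3, against 1725 and 1194 CPM in replicates 1 and 2, and none of them was highest there. The 8 adipocyte genes summed to 30077 CPM there, between the 28576 and 35659 CPM of replicates 1 and 2. Of the 10 NK and cytotoxic genes 8 were highest there as well, and the list summed to 81.6 CPM against at most 43.4 CPM elsewhere. Whether a piece of lymph node entered this sample was not tested. In bulk tissue, fewer cells of a type and less RNA per cell cannot be told apart.

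The library with the highest *Ighm* also held the highest levels of several plasma cell and immunoglobulin genes. In HFD *Mof*+/+ replicate 1, where it was highest, *Jchain*, which joins IgM and IgA into polymers in plasma cells, was at 661 CPM, against at most 88.8 CPM in the other 9 libraries. *Igkc*, the constant part of the kappa light chain, was at 2982 CPM against at most 809 CPM. *Igha* and *Ighg2c*, the constant genes of IgA and IgG2c, were at 433 and 521 CPM against at most 142 and 49.9 CPM, and *Ighg2b* was at 120.5 CPM against at most 23.05 CPM. Of the 12 immunoglobulin constant genes, which include *Ighm* itself, 8 were highest in this library, where they summed to 7595 CPM (3296 CPM of it *Ighm*) against 287 to 1623 CPM elsewhere, and *Ighe* had no count in any library. *Glycam1* had no count in it. HFD *Mof*+/- replicate 2, second in *Ighm*, did not share this, since its plasma cell genes summed to 153 CPM, within the 96.7 to 291 CPM of the libraries other than HFD *Mof*+/+ replicate 1.

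The light chain followed *Ighm* unevenly. *Igkc* was at 8.30, 2.74 and 182 CPM in the SD *Mof*+/+ libraries, at 101, 284 and 809 CPM in the SD *Mof*+/- libraries, at 2982 and 268 CPM in the HFD *Mof*+/+ libraries and at 173 and 50.8 CPM in the HFD *Mof*+/- libraries. As a share of the counts of *Igkc* and *Ighm* together, it took 2.19% (95% interval 1.70% to 2.79%) and 0.962% (0.589% to 1.48%) in SD *Mof*+/+ replicates 1 and 2, and between 21.4% and 60.8% in 7 of the other 8 libraries. HFD *Mof*+/- replicate 2 was the exception at 4.63% (4.11% to 5.19%). SD *Mof*+/+ replicates 1 and 2 thus held 2899 and 2059 counts of *Ighm* beside 65 and 20 of *Igkc* and 7 and 13 of *Cd79a*, and what gave these *Ighm* counts was not tested.

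*Ighd*, the constant gene of IgD that mature naive B cells use beside *Ighm*, was at 137 CPM in SD *Mof*+/+ replicate 3, where it took 17.3% (16.4% to 18.3%) of the counts of *Ighd* and *Ighm*. In the other 9 libraries it was at 0 to 9.88 CPM and took 0% to 1.14%. *Jchain* took 19.7% (17.1% to 22.5%) of the counts of *Jchain* and *Cd79a* in SD *Mof*+/+ replicate 3 and 97.9% (97.6% to 98.2%) in HFD *Mof*+/+ replicate 1. It took 87.0% to 100.0% in 6 of the other 8 libraries, 45.5% of 44 counts in HFD *Mof*+/- replicate 1 and 0% of 13 counts in SD *Mof*+/+ replicate 2.

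**Figure D3:**
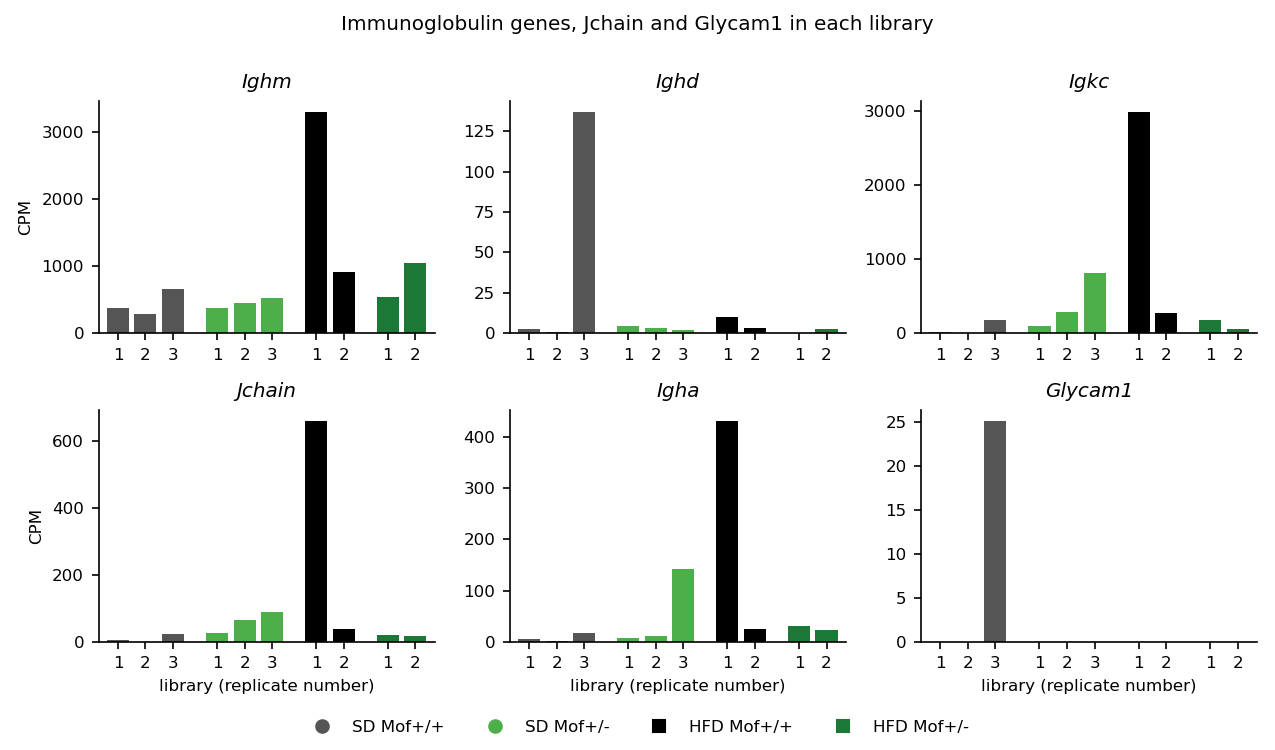
CPM (vertical axes, from 0) of *Ighm*, *Ighd*, *Igkc*, *Jchain*, *Igha* and *Glycam1* in each library (replicate numbers on the horizontal axes, colours mark the groups). *Ighd* (137 CPM) and *Glycam1* (25.2 CPM) peak in SD *Mof*+/+ replicate 3, whereas the other 4 genes peak in HFD *Mof*+/+ replicate 1.

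Antibodies and T cell receptors are built from variable segments joined in each cell, so the number of segments in use describes the variety of receptors. In SD *Mof*+/+ replicate 3, 33 of 113 listed *Ighv* segments of the heavy chain had more than 3 counts, and the leading segment, *Ighv1-26*, took 10.4% of 509 counts. *Ighv1-26* also led in SD *Mof*+/- replicate 3, with 49.5% of 97 counts. In HFD *Mof*+/+ replicate 1, 43 segments had more than 3 counts, but *Ighv5-6* alone took 44.6% of 3937 counts. *Ighv5-6* also led in HFD *Mof*+/+ replicate 2, with 50.8% of 181 counts. In SD *Mof*+/- replicates 1 and 2 the leading segment was *Ighv11-2*, with 27.5% of 385 and 15.5% of 355 counts, a segment known from B-1 cells, the innate-like B cells of body cavities. *Igkv14-126*, the kappa segment that pairs with it in such antibodies, led in SD *Mof*+/- replicate 1 (31.7% of 1232 counts), in both HFD *Mof*+/+ libraries (29.1% of 15685 and 34.6% of 979 counts), in HFD *Mof*+/- replicate 2 (49.3% of 73 counts) and in SD *Mof*+/+ replicate 1, on 16 counts. In SD *Mof*+/+ replicate 3 the leading kappa segment was *Igkv4-59*, with 9.50% of 1126 counts, and it also led in SD *Mof*+/- replicate 2, with 14.1% of 1080 counts.

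For T cells, 17 of 22 listed *Trbv* segments of the receptor's beta chain had more than 3 counts in SD *Mof*+/+ replicate 3, and the leading segment, *Trbv13-2*, took 12.3% of 438 counts. The next highest numbers were 9 and 5 segments, in the HFD *Mof*+/+ libraries, from 77 and 52 counts. The remaining 7 libraries had 0 to 2 such segments from at most 30 counts. Segments resemble each other and the number detected rises with the counts behind it, so the libraries were not ranked by variety, and no test was made.

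**Figure D4:**
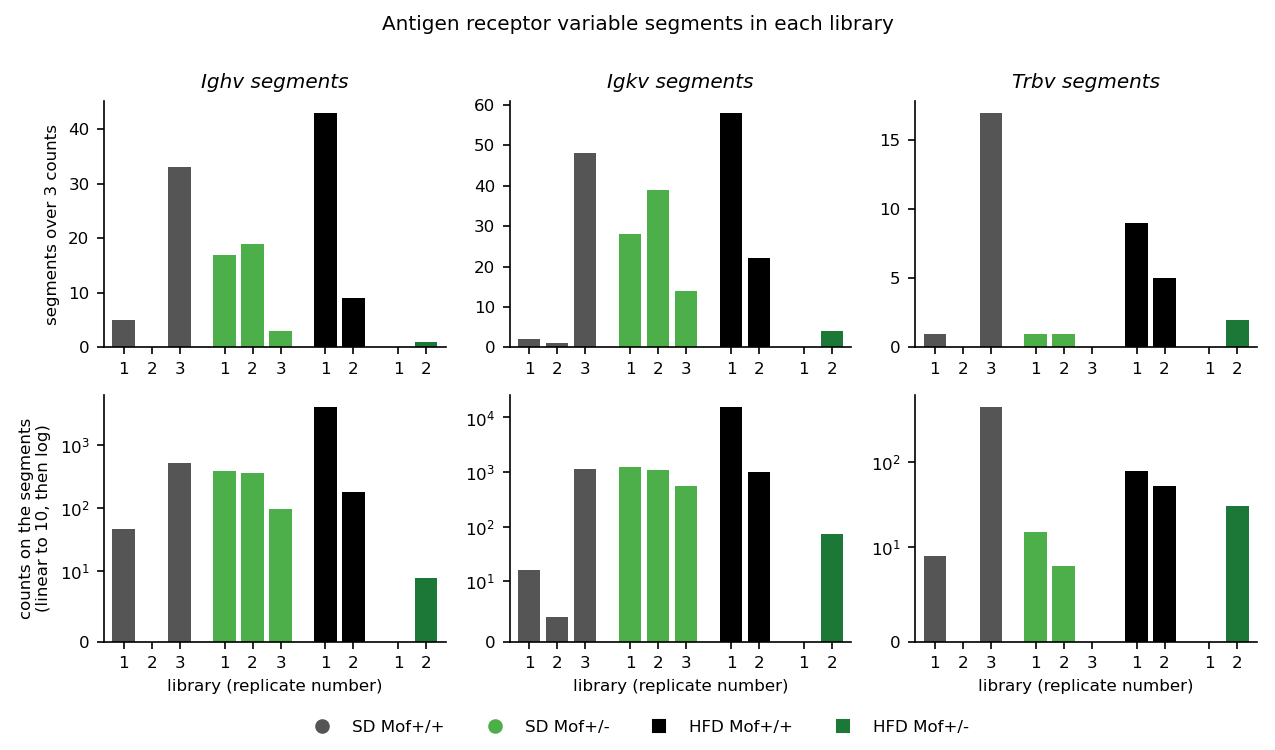
Number of variable segments with more than 3 counts (top) and total counts on all segments (bottom, linear to 10 and then logarithmic) for *Ighv*, *Igkv* and *Trbv* in each library (replicate numbers on the horizontal axes, colours mark the groups). For *Trbv*, SD *Mof*+/+ replicate 3 has 17 segments and the next library 9, whereas for *Ighv* and *Igkv* HFD *Mof*+/+ replicate 1 has the most, 43 and 58.

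The shares of B and T cell counts also differed between libraries. Without *Ighm*, the B cell members took 45.9% (44.3% to 47.5%) of the members' counts in SD *Mof*+/+ replicate 3, 59.2% (56.1% to 62.2%) in HFD *Mof*+/+ replicate 1 and 27.1% (23.2% to 31.4%) in HFD *Mof*+/+ replicate 2. In the other 7 libraries the share ranged from 8.42% (3.71% to 15.9%) in HFD *Mof*+/- replicate 2 to 80.0% (61.4% to 92.3%) in HFD *Mof*+/- replicate 1, and SD *Mof*+/- replicate 1 was at 73.1% (66.3% to 79.2%). *Cd8a* took 52.7% (49.6% to 55.8%) of the counts of *Cd8a* and *Cd4* in SD *Mof*+/+ replicate 3, 52.1% (41.6% to 62.4%) in HFD *Mof*+/+ replicate 1 and 93.3% (85.1% to 97.8%) in HFD *Mof*+/+ replicate 2. In the other libraries these shares of *Cd8a* and *Cd4* rested on 0 to 41 counts.

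The first comparison asked whether *Mof*+/- and *Mof*+/+ WAT differed on SD. Groups were compared with edgeR's quasi-likelihood test, adjusted by Benjamini-Hochberg over all genes tested with a threshold of 0.05. Of the 9 members, 8 passed the filter on low counts (*Ms4a1* did not), and none was past the threshold, while 5.24% of the 13864 genes tested were. Fold changes were negative for 7 members, all but *Ighm*, with a median log2 fold change of -2.57 over the 8 tested, beside -0.07 over all genes. Their standard errors were large, for example -2.89 (SE 1.46, adjusted p = 0.254) for *Cd79a* and -3.12 (SE 1.45, adjusted p = 0.219) for *Cd3e*. *Ighm* had a log2 fold change of 0.42 (SE 0.34, adjusted p = 0.477). The differences of these 3 genes were not larger than the spread between libraries.

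*Cd8a* came nearest to the threshold on SD, with an adjusted p of 0.0558. It was the only member under an unadjusted 0.05, beside 3559 of the 13864 genes tested, and passed the filter only through the SD *Mof*+/+ libraries. Since all SD *Mof*+/- libraries were at 0, its fold is a lower bound, set by 3 counts over the group (0.0874 CPM): the SD *Mof*+/+ mean of 24.6 ± 39.0 CPM (SD, n = 3) was at least 282-fold higher. Without SD *Mof*+/+ replicate 3 the mean was 2.11 CPM and the bound at least 24.2-fold, with an adjusted p of 0.187. Floors set per library are higher, from 0.175 to 0.446 CPM in the SD *Mof*+/- libraries, and would give smaller bounds. DESeq2 called no member and gave no p-value for 7 of the 8, which it treated as count outliers.

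All negative fold changes on SD, apart from that of *Cd8a*, turned positive once SD *Mof*+/+ replicate 3 was left out. *Cd79a* then had a log2 fold change of 1.62 (SE 1.22, adjusted p = 0.503), *Cd79b* of 0.996 (SE 0.95, adjusted p = 0.606) and *Cd3d* of 3.02 (SE 1.69, adjusted p = 0.359). *Cd3g* was at 1.26, *Cd4* at 0.81 and *Cd3e* at 0.52, and again no member was past the threshold. On SD the direction of 6 of the 7 negative members thus rested on 1 library, and no member passed the threshold with it or without it. With the genotypes of the headings, the 7 fold changes were also positive, between 1.44 and 3.94, and no gene of all those tested was past the threshold.

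**Figure D5:**
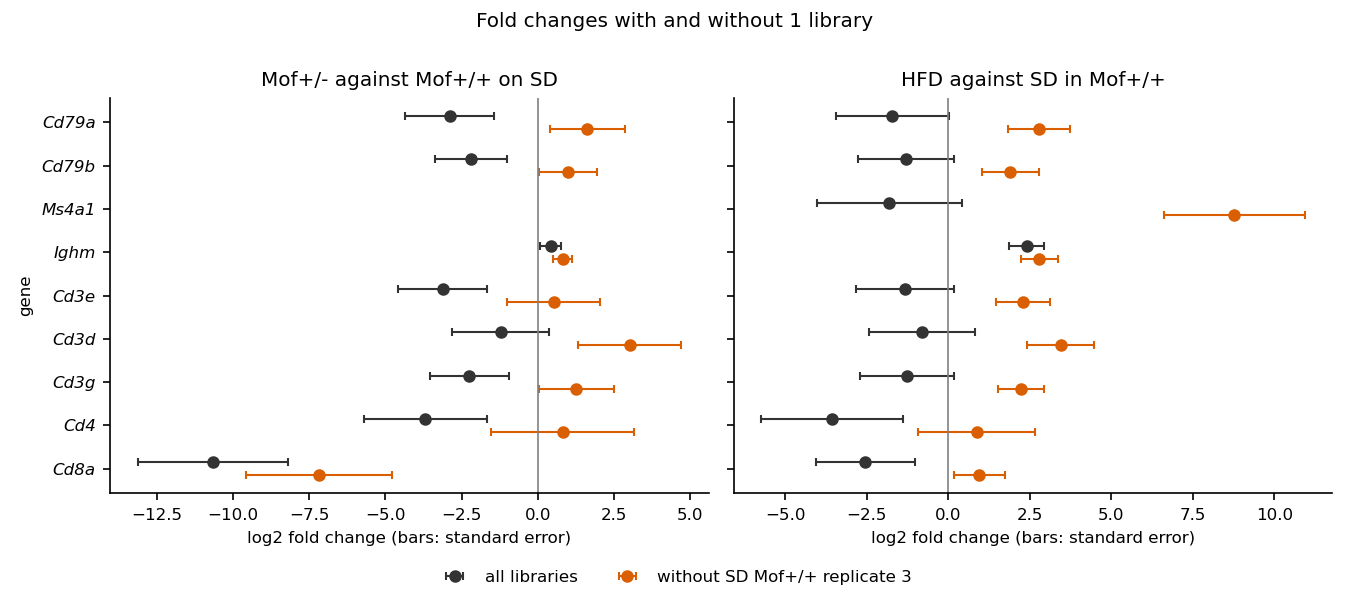
Log2 fold change (horizontal axes, bars give the standard error) of each member between the genotypes on SD (left) and between the diets in *Mof*+/+ (right), with all libraries and without SD *Mof*+/+ replicate 3. Except for *Ighm* in both panels and *Cd8a* on the left, the orange points lie on the other side of 0 from the dark points, and *Ms4a1* was not tested on the left.

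The directions of the further T and B cell genes on SD also turned for many genes without that library. Of 10 further T cell genes tested, all 10 had negative fold changes with all libraries (median -3.25) and 5 without SD *Mof*+/+ replicate 3 (median -0.02). Of 12 further B cell genes, 11 were negative with all libraries (median -2.04) and 3 without it (median 0.73). *Cd247*, the zeta chain of the T cell receptor complex, was the only gene of these lists past the threshold, lower in *Mof*+/- with a log2 fold change of -2.65 (SE 0.58, adjusted p = 0.0429). It was at 30.1, 10.3 and 32.3 CPM in the SD *Mof*+/+ and at 1.92, 3.64 and 3.42 CPM in the SD *Mof*+/- libraries, so that unlike the CD3 genes it was nearly as high in replicate 1 as in replicate 3. *Sox13*, a factor of gamma-delta T cells, was also past the threshold, at -1.79 (SE 0.41, adjusted p = 0.0455), with 54.7, 28.9 and 35.6 CPM against 12.52, 9.21 and 5.20 CPM. It was thus highest in replicate 1, unlike the CD3 genes, and which cells gave it was not tested. *Trdc*, of the same gamma-delta T cell list, had a log2 fold change of -0.59 (SE 1.52, adjusted p = 0.838). Without SD *Mof*+/+ replicate 3 neither *Cd247* nor *Sox13* was past the threshold. Their log2 fold changes were then -2.40 (adjusted p = 0.127) and -1.88 (adjusted p = 0.110), close to those with all libraries. The calls over all genes fell from 727 to 74 in that fit. Of 10 immunoglobulin constant genes tested on SD, 9 had positive fold changes with all libraries (median 1.41) and 10 without that library (median 5.60). In the latter fit 7 were under an unadjusted 0.05, beside 2961 of the 14440 genes tested, and none was past the threshold in either fit. *Ighg2b*, *Ighg2c* and *Ighg3* had log2 fold changes of 10.1, 10.2 and 9.19 there. Values of that size come from a group near 0 and depend on the prior count, and such genes pass the filter only through the *Mof*+/- libraries.

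The second comparison asked how HFD-fed *Mof*+/+ mice differed from SD-fed ones. *Ighm* rose on HFD, from 435 ± 194 CPM (SD, n = 3) to 2103 ± 1687 CPM (SD, n = 2), with a log2 fold change of 2.40 (SE 0.55, adjusted p = 0.0410). It was the only one of the 9 members past the threshold and the only member whose groups did not overlap, whereas 9.75% of the 14939 genes tested were past it and 49.1% did not overlap. *Ighm* was not past the threshold in a single fit of all libraries or with the genotypes of the headings. Without HFD *Mof*+/+ replicate 1, the library rich in plasma cell genes, the log2 fold change was 1.23 and the adjusted p 0.240. It was also not past the threshold without SD *Mof*+/+ replicate 1 (log2 fold change 2.30, adjusted p = 0.122), SD *Mof*+/+ replicate 2 (2.17, adjusted p = 0.0982) or HFD *Mof*+/+ replicate 2 (3.06, adjusted p = 0.0529). In these 3 fits the fold stayed near or above that with all libraries, while 1.63%, 5.87% and 0.384% of all genes were past the threshold.

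The other 8 members had negative fold changes with all libraries, from -0.79 (*Cd3d*, SE 1.62, adjusted p = 0.794) to -3.56 (*Cd4*, SE 2.18, adjusted p = 0.331). The median over the 9 members was -1.33, beside -0.04 over all genes. Without SD *Mof*+/+ replicate 3 all 9 had positive fold changes, with log2 fold changes of 2.78 (SE 0.94, adjusted p = 0.0933) for *Cd79a*, 3.45 (SE 1.03, adjusted p = 0.0685) for *Cd3d* and 2.23 (SE 0.70, adjusted p = 0.0792) for *Cd3g*. *Ighm* remained the only member past the threshold, at 2.79 (SE 0.58, adjusted p = 0.0291). The groups then did not overlap for 7 of the 9 members, all but *Cd79b* and *Cd4*, beside 64.5% of all genes tested in that fit. For *Ms4a1* both remaining SD *Mof*+/+ libraries were at 0, so it passed the filter on low counts only through the HFD libraries. The direction of 8 of the 9 members between the diets thus turned with a single library.

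The same held for the further lymphocyte genes between the diets. With all libraries, 19 of 20 further T cell genes tested had negative fold changes (median -1.53) and none was past the threshold. Without SD *Mof*+/+ replicate 3, 19 of 21 were positive (median 2.08) and 4 were higher past the threshold, namely *Cd2*, *Il7r*, *Lat* and *Themis*, beside 14.9% of all genes in that fit. *Il7r*, a receptor for a survival signal of lymphocytes, was at 35.7 and 56.7 CPM in the HFD *Mof*+/+ libraries, at 2.68 and 3.56 CPM in SD *Mof*+/+ replicates 1 and 2 and at 47.8 CPM in replicate 3. Of the further B cell genes, 13 of 17 were negative with all libraries, with *Blnk*, an adaptor of the B cell receptor that macrophages also express, higher past the threshold (2.70, SE 0.48, adjusted p = 0.0219). Without that library 13 of 14 were positive and 5 were past the threshold, *Blk*, *Blnk*, *Btk*, *Cd22* and *Cd37*. The filter on low counts keeps a gene that is high enough in either group. A gene near 0 in SD *Mof*+/+ replicates 1 and 2 was thus tested only where it was higher on HFD, which set its direction. The counts without that library are therefore set in part by the filter. *Themis* and *Blk* had log2 fold changes of 8.19 and 8.33 there, a size given by a group near 0.

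The immunoglobulin constant genes depended on HFD *Mof*+/+ replicate 1 instead. Of 11 constant genes tested, 10 had positive fold changes with all libraries (median 2.58), and *Igha* was past the threshold beside *Ighm* (5.08, SE 1.25, adjusted p = 0.0492). Without SD *Mof*+/+ replicate 3, all 9 tested were positive and 6 were past the threshold, beside the same 14.9% of all genes. Without HFD *Mof*+/+ replicate 1, however, 5 of 11 were positive (median -1.02) and none was past it, beside 1.49% of all genes in that fit. With all libraries the plasma cell genes had positive fold changes for all 7 tested, with *Sdc1*, a surface proteoglycan of plasma cells that other cells also carry, past the threshold (1.13, SE 0.27, adjusted p = 0.0461). Without HFD *Mof*+/+ replicate 1 the log2 fold change of *Sdc1* was 1.35, and that of *Mzb1* turned negative, at -1.59. Of 10 macrophage genes, 7 were higher past the threshold in the same comparison, beside 9.75% of all genes, and 3 did not pass it (median of the 10 2.20), and their part in the B cell results was not tested.

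Between the genotypes on HFD, none of the 9 members was past the threshold in edgeR's test, nor was any other gene (0% of the 14120 genes tested). Unadjusted, 1732 of all genes and 1 member, *Ms4a1* (adjusted p = 0.404), were under 0.05, and DESeq2 called 209 genes and no member. Fold changes were negative for 7 members, with a median of -1.11 beside -0.24 over all genes. *Ighm* was at 2103 ± 1687 CPM (SD, n = 2) in *Mof*+/+ and 789 ± 364 CPM (SD, n = 2) in *Mof*+/-, a log2 fold change of -1.11 (SE 0.79, adjusted p = 0.729). Without HFD *Mof*+/+ replicate 1 it was 0.07. *Ms4a1* had no count in the HFD *Mof*+/- libraries, and the *Mof*+/+ mean of 4.57 CPM was at least 10.01-fold above 3 counts over that group (0.456 CPM). The bound was 2.46-fold without HFD *Mof*+/+ replicate 1 and 17.6-fold without replicate 2. A floor set per library is higher, since HFD *Mof*+/- replicate 1 alone allows up to 2.87 CPM, above the 1.12 CPM of HFD *Mof*+/+ replicate 2.

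Of the 9 members, 4 did not overlap between the genotypes on HFD (*Cd79b*, *Ms4a1*, *Cd3e* and *Cd8a*, all lower in *Mof*+/-), beside 54.4% of all genes tested. In HFD *Mof*+/- replicate 1, which holds the muscle genes, 6 of the 9 members had no count, and 0 counts there allow up to 2.87 CPM. In replicate 2, with 5531786 counts, *Cd3d* was at 7.23 CPM, beside 6.01 and 7.24 CPM in the HFD *Mof*+/+ libraries, *Cd4* at 5.24 and *Cd8a* at 2.17 CPM, while *Cd79a*, *Ms4a1* and *Cd3g* had no count.

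Between the diets in *Mof*+/-, 7 members were tested and none was past the threshold in edgeR's test, nor was any other gene (0% of 13610 genes). Under an unadjusted 0.05 were 1166 genes and no member, and DESeq2 called 402 genes and no member. Fold changes were positive for 3 members and negative for 4, with a median of -0.10 beside -0.26 over all genes. *Ighm* was at 448 ± 74.6 CPM (SD, n = 3) on SD and 789 ± 364 CPM (SD, n = 2) on HFD, with a log2 fold change of 0.78 (SE 0.48, adjusted p = 0.694). It and *Cd79b*, which was lower on HFD, were the 2 members whose groups did not overlap, beside 27.6% of all genes. For *Ighm* the nearest libraries were at 531 CPM on HFD and 521 CPM on SD, and their counting intervals overlapped.

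The interaction of genotype and diet, fitted to all 10 libraries, had no member past the threshold in edgeR's test, while 0.0881% of 15897 genes were, and DESeq2 called 490 genes and no member. *Cd8a* was the only member under an unadjusted 0.05 (adjusted p = 0.289), beside 1969 of the 15897 genes, and its estimate rests on a group at 0. *Ighm* had a log2 difference of -1.63 between the diet effects of *Mof*+/- and *Mof*+/+ (SE 0.76, adjusted p = 0.411). The rise of *Ighm* on HFD in *Mof*+/+ was therefore not shown to differ from its change in *Mof*+/-.

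The genes most like the members over the 10 libraries were themselves lymphocyte genes for the most part. With the mean log2(CPM + 1) of the 4 B cell members, the 10 highest Pearson correlations included those of *Themis* (0.94), *Lax1* (0.93), *Blk* (0.93), *Ikzf3* (0.93), *Myb* (0.92), *Spib* (0.92), *Cd6* (0.92), *Slamf6* (0.91) and *Tnfrsf13c* (0.91). *Themis* and *Cd6* are T cell genes, whereas *Blk*, *Spib* and *Tnfrsf13c*, the receptor for BAFF, belong to B cells. All 10 were highest in SD *Mof*+/+ replicate 3 and second in HFD *Mof*+/+ replicate 1. Without the former library their correlations were 0.74 to 0.85.

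With the mean of the 5 T cell members, the highest were *Lck* (0.95), *BE692007* (0.94), *Ltb* (0.94), *Trac* (0.93), *Slamf6* (0.93), *Ms4a4b* (0.93), *Cd6* (0.92), *Cd28* (0.92), *Flt3* (0.92) and *Cxcr5* (0.92). *Trac* encodes the constant part of the T cell receptor alpha chain and *Cd28* a costimulatory receptor, and *Flt3* is a receptor of dendritic cells and progenitors. *Ms4a4b* was at 53.4 CPM in SD *Mof*+/+ replicate 3 and at 15.0 CPM in HFD *Mof*+/+ replicate 1, and its correlation without the former library was 0.95, whereas those of the other 9 genes were 0.66 to 0.92. Each correlation is over 10 libraries, of which a single library held the highest value of each of these genes.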

How the data were processed

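mRNA-seq of visceral WAT was analysed in 10 libraries. The authors used STAR (GRCm38) for mapping and featureCounts for counting, and the deposited values are raw counts per gene of each library, without normalization. Whether counting used strand is not given in the sources used here. Symbols (47224 of 47937 genes matched), coordinates and exon lengths came from GENCODE M21 on GRCm38.

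Groups follow the sample labels, which name biological replicates, and p-values measure the spread between these. Totals of 1044355 to 17171947 counts set the precision. CPM were scaled to each total, and tests used TMM scaling, so that their fold changes differ from ratios of CPM. Pairs of groups were tested with edgeR 4.0.16 (quasi-likelihood test, filterByExpr) on the libraries compared, with Benjamini-Hochberg adjustment over all genes tested and a threshold of 0.05. The interaction used all 10 libraries. Standard errors were the log2 fold change divided by the root of F.

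The members and the 20 further gene lists were chosen with earlier results of these data known. Named were all members, up to 5 genes per list with the smallest p past the threshold, the lymph node, immunoglobulin constant and follicular genes by library, and the 10 genes (mean of at least 20 counts) most correlated with the B and with the T cell members. Some genes of the lists and of the 10 most correlated are not reported here. Other genes named were chosen after their values were seen.

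The alternatives were DESeq2 1.42.0, TMM exchanged for its size factors, no filter, the replicate number as a block, all 10 libraries in a single fit, each library left out, the grouping by column headings and TMM-scaled CPM. The procedure was tested on simulated data. Software was R 4.3.3, Python 3.11.15, pandas 2.3.3, scipy 1.17.1 and matplotlib 3.10.9.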

Additional observations from a re-analysis of the deposited data

How the results depend on the processing

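The values rest on 2 or 3 libraries a group and, for 8 of the 9 genes, on few counts outside SD *Mof*+/+ replicate 3, and log2 fold changes of genes with a group at 0 depend on the prior count. Leaving out 1 library gave 0 to 5 members past the threshold between the genotypes on HFD, where leaving out HFD *Mof*+/- replicate 1 gave 4 (beside 27.2% of all genes) and replicate 2 gave 5 (beside 47.9%), with the lone library assumed to vary like the other group. It gave 0 to 1 between the diets in *Mof*+/+, and 1 to 3 (SD genotype), 5 to 8 (HFD genotype), 1 to 7 (diet in *Mof*+/+) and 2 to 6 (diet in *Mof*+/-) members without overlap, the highest beside 49.2%, 94.1%, 64.5% and, without either HFD *Mof*+/- library, 54.6% and 70.8% of all genes. Without the filter, 1 member (*Cd8a*) was past the threshold on SD, and 1 in the interaction, beside 8.35% and 1.62% of all genes. A single fit and the grouping by headings each gave 0 for the diet in *Mof*+/+, where the adjusted p of *Ighm* was between 0.00977 and 0.348 over all alternatives. Other than for changes in fewer samples, the cause was not tested.

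The replicate numbers do not pair the libraries. The correlations of same-numbered deviations were at most 0.0428 in size. With the replicate block 1 member (*Cd8a*) was past the threshold on SD (beside 3.09% of all genes) and 6 for the diet in *Mof*+/+ (beside 9.77%), a fit in which SD *Mof*+/+ replicate 3 has no partner and so does not enter the comparison. There the block turned *Cd79a* to 2.47, *Cd79b* to 1.72, *Ms4a1* to 8.71, *Cd3e* to 2.29, *Cd3d* to 3.59, *Cd3g* to 2.24, *Cd4* to 0.66 and *Cd8a* to 0.94 on the log2 scale. It also turned *Cd3d* on SD (0.19), *Cd79a* between the genotypes on HFD (-1.58), and *Cd79a* (-0.22) and *Cd3d* (0.52) for the diet in *Mof*+/-, and in the interaction *Cd3e* (-1.60), *Cd3d* (-0.92) and *Cd3g* (-1.23).

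The grouping by headings turned, on SD, *Cd79a* (3.28), *Cd79b* (2.50), *Cd3e* (3.07), *Cd3d* (1.44), *Cd3g* (2.50), *Cd4* (3.24) and *Cd8a* (3.94). For the diet in *Mof*+/+ it turned *Cd79a* (1.53), *Cd79b* (1.18), *Cd3e* (1.76), *Cd3d* (0.59), *Cd3g* (1.20) and *Cd8a* (1.52), for the diet in *Mof*+/- *Cd79a* (-1.01) and *Cd4* (-2.43), and in the interaction *Cd79a* (-2.62), *Cd3e* (-5.78), *Cd3d* (-2.01), *Cd3g* (-3.71), *Cd4* (-2.20) and *Cd8a* (-5.25). DESeq2 turned *Cd3g* to 0.036 for the diet in *Mof*+/-.

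Fold changes that turned when 1 library was left out ranged, on SD, from -3.46 to 1.62 (*Cd79a*), -2.75 to 0.996 (*Cd79b*), -3.68 to 0.52 (*Cd3e*), -3.01 to 3.02 (*Cd3d*), -2.91 to 1.26 (*Cd3g*) and -5.94 to 0.81 (*Cd4*). Between the genotypes on HFD they ranged from -9.71 to 2.32 (*Cd79a*), -1.77 to 0.066 (*Ighm*), -9.16 to 0.29 (*Cd3d*), -9.39 to 0.13 (*Cd3g*) and -7.15 to 3.26 (*Cd4*). For the diet in *Mof*+/+ the ranges were -3.17 to 2.78 (*Cd79a*), -2.76 to 1.90 (*Cd79b*), -3.79 to 8.77 (*Ms4a1*), -1.88 to 2.29 (*Cd3e*), -1.37 to 3.45 (*Cd3d*), -1.82 to 2.23 (*Cd3g*), -5.87 to 0.87 (*Cd4*) and -3.09 to 0.95 (*Cd8a*). For the diet in *Mof*+/- they were -8.06 to 2.93 (*Cd79a*), -8.23 to 1.61 (*Cd3d*), -7.93 to 1.05 (*Cd3g*) and -6.59 to 1.85 (*Cd4*). In the interaction, leaving out 1 library turned *Cd79a*, *Cd79b*, *Ms4a1*, *Cd3e*, *Cd3d*, *Cd3g* and *Cd4* at least once, and without SD *Mof*+/+ replicate 3 *Cd79a* was at -0.92, *Cd3e* at -3.28, *Cd3d* at -3.60 and *Cd3g* at -2.38.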
